A study of Rattus norvegicus with 8 samples.

Results

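The cytochrome P450 genes of the rat were examined in whole blood. Members were all array probe sets that the platform annotation ties to exactly 1 gene symbol beginning with Cyp and a number. There were 66 such probe sets for 58 genes, out of 31042 probe sets tested and 14217 genes named by 1 symbol. The rule itself reads the annotation and no measured value, although this gene family was taken up with earlier results of these data known. Of the 58 genes, 51 had 1 probe set and 7 had more, and all 58 matched a gene of the RefSeq annotation by gene number.

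The blood came from male Wistar rats, bought at 7 weeks of age, kept on a normal diet for a week of acclimation and then fed for 8 weeks. The normal group stayed on the CE-2 diet (n = 4 arrays) and the high-fat group ate the Quick fat diet (n = 4 arrays). The design text gives 10 rats per diet and a further diet with mulberry leaf powder, which is not analysed here. Blood was taken on day 56 after an overnight fast, and total RNA was labelled for Affymetrix 3' expression arrays. Arrays within a diet are labelled as biological replicates and were each taken to be 1 rat. If arrays of a group shared an animal or a preparation, the p-values would measure only the spread between these arrays.

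Cytochrome P450 enzymes are heme proteins that insert an oxygen atom into a substrate with electrons passed on by a reductase or a ferredoxin. Families 1 to 3 act largely on drugs and other foreign compounds and are made mainly in the liver, family 4 hydroxylates fatty acids and eicosanoids, and the families of higher number make or break down sterols, bile acids, steroid hormones, vitamin D and retinoids. Blood is not a main site of most of these enzymes. White cells are known to express a few of them, among them Cyp1b1, Cyp27a1 and Cyp27b1 in monocytes and macrophages and members of the Cyp4f group in neutrophils.

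The deposited values read as log2 levels, between 5.19 and 15.25, but differed very little between arrays. Over the 8 arrays, the SD of a probe set had a median of 6.07 millionths of a deposited log2 unit. Differences are therefore given in millionths of that unit and, to set them against the spread of the same probe set, in pooled within-group SDs. They are not fold changes. A probe set's place on the array depends on its probes as well as on RNA, so a place above the array median does not rank a gene's RNA against that of another gene. In bulk blood, fewer cells of a type and less RNA per cell cannot be told apart.

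Markers of blood cells and of other tissues checked the labelled tissue. Of 33 measured blood cell markers, 32 lay above the array median of 6.60, with a median place at the 95.4th percentile of all probe sets. Every measured marker of red cells (5 of 5, with Hbb at 15.09), T cells (6 of 6), B cells (3 of 3), monocytes (5 of 5), platelets (4 of 4) and natural killer cells (5 of 5) did so, as did 4 of 5 neutrophil markers. The exception was Camp, a granule peptide of neutrophil precursors, at the 42.7th percentile. Of 26 measured markers of other tissues, 9 lay above the array median: 4 of 11 for liver, 2 of 7 for adrenal and gonad, 2 of 4 for kidney and 1 of 4 for intestine. The highest of each were Hp for liver (88.8th percentile), Insl3 for adrenal and gonad (65.2nd), Slc34a1 for kidney (85.4th) and Alpi for intestine (55.6th). Among those below the array median, the liver plasma protein albumin (Alb) lay at the 47.5th percentile and the steroid carrier Star at the 30.5th.

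Of the 66 P450 probe sets, 18 (27.3%) lay above the array median, each for a different gene, and the same number did so in all 8 arrays. The members ran from 5.51 for Cyp7b1 to 7.60 for Cyp4f6, with a median of 6.28, the 29.2nd percentile. Against the median over named probe sets alone, 12 members lay above. The share above by role was 8 of 29 for oxidation of foreign compounds, 6 of 17 for fatty acids and eicosanoids, 3 of 8 for sterols and bile acids, 1 of 4 for vitamin D and retinoids and 0 of 7 for steroid hormones. Cyp20a1, an orphan enzyme with no settled substrate, lay below at the 33.8th percentile.

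The highest place belonged to Cyp4f6, a fatty acid hydroxylase of the group that also inactivates leukotrienes, at a mean of 7.60 and the 86.8th percentile. Its relative Cyp4f5 lay just above the median at the 51.6th percentile, while Cyp4f17, Cyp4f4 and Cyp4f1 lay at the 19.4th, 19.1st and 5.01st. Cyp2u1, which hydroxylates arachidonic and other long-chain fatty acids, followed in that role at the 74.3rd percentile. Cyp4a3, a fatty acid hydroxylase controlled by PPAR alpha in liver, and Cyp4v3, a hydroxylase of medium-chain fatty acids, lay at the 58.8th and 58.5th, and the lung enzyme Cyp4b1 at the 52.0th. None of the 4 probe sets of the Cyp2j epoxygenases lay above the median, the nearest being Cyp2j4 at the 39.8th percentile.

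Among enzymes of foreign compounds, Cyp2d4, the Cyp2d form known from rat brain, lay at the 85.5th percentile, and its second probe set at the 21.1st. Cyp1b1, which oxidises aromatic hydrocarbons and estradiol outside the liver, lay at the 79.95th percentile with a level of 7.29. Cyp2c6v1, a liver form, lay at the 78.8th, Cyp2g1, of the olfactory mucosa, at the 66.4th, Cyp2a1 at the 61.4th and the epithelial form Cyp2s1 at the 60.1st. Cyp2b3 (51.5th) and Cyp2a3 (50.6th) were the members nearest above the array median. Cyp2e1, which oxidises ethanol, and Cyp3a9 were the nearest below it, at the 46.2nd and 44.6th. The other 3 probe sets of the main drug-oxidising Cyp3a group lay at the 7.36th percentile (Cyp3a2), the 5.84th (Cyp3a18) and the 4.15th (Cyp3a23-3a1). Cyp1a1 and Cyp1a2, both targets of the aryl hydrocarbon receptor, lay below the median with Cyp1a1 at the 35.9th percentile.

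Cyp46a1, the cholesterol hydroxylase of neurons, lay highest among the sterol enzymes at the 79.5th percentile. Cyp8b1, which sets the cholic acid share of bile, and Cyp27a1, a mitochondrial sterol hydroxylase, lay just above the median at the 54.2nd and 52.4th. Cyp51, the lanosterol demethylase of cholesterol synthesis, lay below it with both of its probe sets (44.2nd and 33.1st), as did Cyp7a1, the rate-limiting enzyme of bile acid synthesis (30.2nd), and Cyp39a1 (29.4th). The lowest member was Cyp7b1, an oxysterol hydroxylase, at the 0.754th percentile. Cyp27b1, which activates vitamin D, lay at the 57.0th percentile, while Cyp26a1 and both probe sets of Cyp26b1, enzymes that degrade retinoic acid, lay below the median. Of the steroid hormone enzymes, Cyp11a1, which cleaves the cholesterol side chain, was highest at the 38.2nd percentile and Cyp17a1 lowest at the 12.4th.

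**Figure D1:**
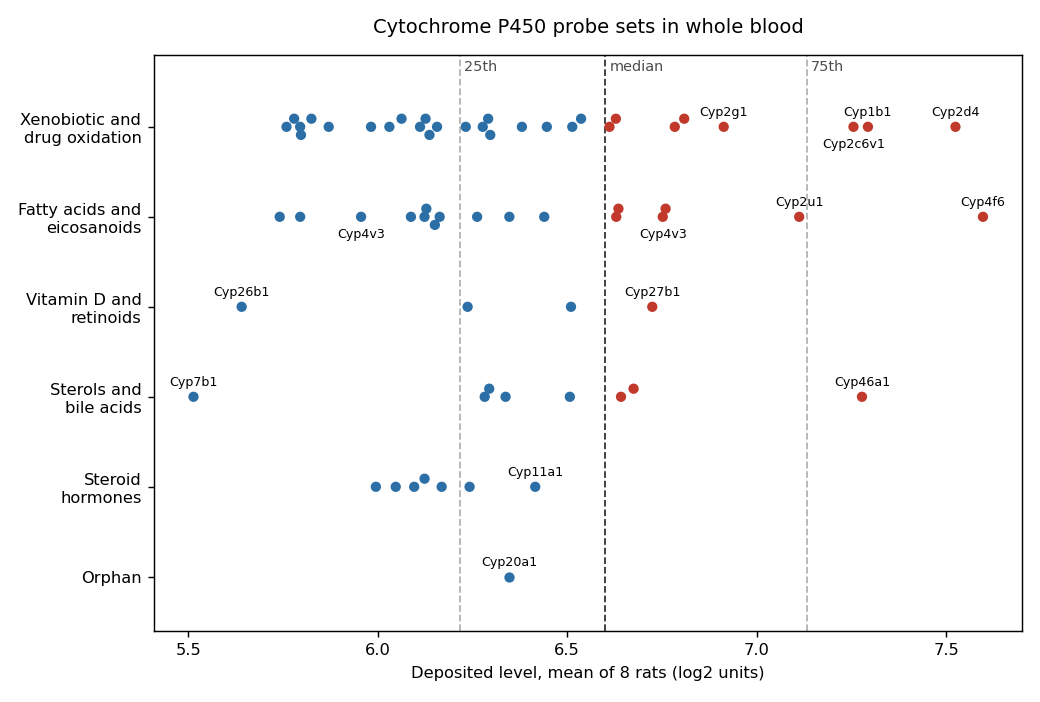
Deposited level of each of the 66 P450 probe sets (x axis, mean of 8 rats, log2 units) by role of the enzyme (rows). Red points lie above the array median of 6.60 and blue points below it. Dashed lines mark the 25th percentile, the median and the 75th percentile of all probe sets. No point of the steroid hormone row lies above the median, and Cyp4f6 at 7.60 is farthest right.

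The DNA in front of the genes' starts was read from RefSeq for the GRCr8 assembly, which gave a window of 300 bases, 250 before and 50 after the start, for 46 of the 58 genes. These windows held a median of 3 CpG dinucleotides, against 7 over 27457 windows of all genes. The 16 genes above the array median had a median of 5.5 (range 1 to 36, with the highest count in front of Cyp46a1), and the 30 below it a median of 3 (0 to 27). The letters TATAAA, searched on both strands, occurred in 13 of 46 windows (28.3%), against 14.3% of all windows. They occurred in 10 of 25 windows of enzymes of foreign compounds and in 0 of 10 of fatty acid enzymes. GCGTG, the core of the aryl hydrocarbon receptor's element, also searched on both strands and holding 1 CpG itself, occurred in 12 of 46 windows (26.1%), against 31.1% of all. The window of Cyp1b1 held it. These matches are descriptions of letters, not of bound sites.

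The 150 bases before the start of 5 genes show both ends of this range. They are printed 5′ to 3′ on the strand of the gene, with CpG and TATAAA in capitals. Cyp20a1 and Cyp51 are among the 4 members below their own mean in both rats of the pattern across animals described further on. For Cyp51 this holds for the narrower of its 2 probe sets only. The others of the 4, Cyp2a2 and Cyp2u1, are not shown, and no relation of CpG count to that pattern was tested. Cyp1b1 is shown as the highest of the 3 members above the median named here as known from monocytes and macrophages. Cyp2c13 and Cyp2c11, male forms of rat liver, are shown as members below it. They lie at chr9:69249723-69249872 (+) for Cyp20a1, chr4:30991543-30991692 (+) for Cyp51, chr6:21094415-21094564 (+) for Cyp1b1, chr1:248787189-248787338 (-) for Cyp2c13 and chr1:246175066-246175215 (+) for Cyp2c11.
Cyp20a1: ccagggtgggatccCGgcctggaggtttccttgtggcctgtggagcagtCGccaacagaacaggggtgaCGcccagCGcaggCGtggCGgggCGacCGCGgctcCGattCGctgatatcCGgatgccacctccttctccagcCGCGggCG
Cyp51: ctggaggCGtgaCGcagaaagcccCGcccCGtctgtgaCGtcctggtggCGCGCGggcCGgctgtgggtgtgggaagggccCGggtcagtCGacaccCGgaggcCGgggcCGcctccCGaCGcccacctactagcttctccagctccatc
Cyp1b1: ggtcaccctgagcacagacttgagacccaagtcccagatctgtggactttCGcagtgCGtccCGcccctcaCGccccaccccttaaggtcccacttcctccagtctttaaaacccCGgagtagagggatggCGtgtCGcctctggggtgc
Cyp2c13: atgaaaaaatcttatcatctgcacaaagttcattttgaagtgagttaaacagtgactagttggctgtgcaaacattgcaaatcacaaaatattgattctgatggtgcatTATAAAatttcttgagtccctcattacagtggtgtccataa
Cyp2c11: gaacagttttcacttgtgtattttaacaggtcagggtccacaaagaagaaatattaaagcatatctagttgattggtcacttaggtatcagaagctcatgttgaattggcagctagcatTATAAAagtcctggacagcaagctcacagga
The stretch of Cyp51 held 16 CpG and that of Cyp20a1 held 15, neither with TATAAA. That of Cyp1b1 held 7. Those of Cyp2c13 and Cyp2c11 held 0 CpG and 1 TATAAA each, which began 41 and 31 bases before the start. The level in blood was 6.23 for Cyp2c13, 6.45 for Cyp2c11 and 6.35 for Cyp20a1, all below the array median, and 7.29 for Cyp1b1.

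The P450 probe sets varied between animals about as much as the array at large, and far less than the blood cell markers. Their median SD over the 8 rats was 5.02 millionths, against 6.07 over all probe sets and 149.97 over the blood cell markers. Of the 66 members, 31 (47.0%) had an SD above the median of all probe sets. Over the whole array, spread grew with level: the median SD was 8.16 millionths above the array median and 4.82 below it. The P450 probe sets ran the other way, at 3.75 millionths for the 18 above the median and 5.67 for the 48 below it. This order was not tested. Only 1 of 66 members (1.52%) lay in the top 10% of SDs over all probe sets, which begins at 37.2 millionths, while 25 of 33 blood cell markers did. The markers of other tissues had a median SD of 4.47 millionths, with 1 of 26 in that top 10%.

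**Figure D2:**
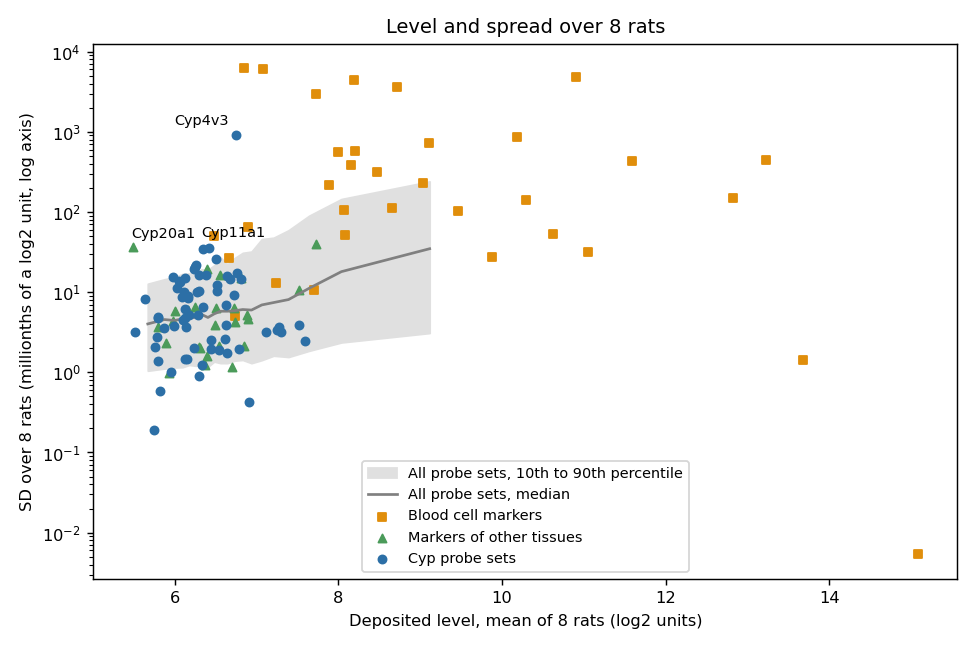
SD over the 8 rats (y axis, millionths of a deposited log2 unit, log axis) against mean level (x axis, log2 units) for P450 probe sets, blood cell markers and markers of other tissues. The grey band and line give the 10th to 90th percentile and the median of all probe sets in bins of level. Cyp4v3, at 900.1 millionths, is the P450 probe set that lies among the blood cell markers.

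The single wide member was a probe set annotated to Cyp4v3, with an SD of 900.1 millionths, the 99.5th percentile of all probe sets. Probe sequences were not used here, so whether this probe set measures Cyp4v3 was not tested. The next widest were Cyp11a1 at 35.5, Cyp20a1 at 34.2, the wider Cyp51 probe set at 25.9 and a Cyp2j3 probe set at 22.05 millionths. Without that Cyp4v3 probe set, left out after its value was seen, the members' median SD was 4.89 millionths. In the normal group it deviated from its mean over the 8 rats by -1201, -283, -233 and 299 millionths in replicates 1 to 4. In the high-fat group it deviated by 926, 753, 997 and -1259 millionths. High-fat replicates 1 to 3 lay above every normal rat and high-fat replicate 4 lay below every other rat, so the groups overlapped. The difference was 709 ± 586 millionths (SE by limma, n = 4 and 4), or 0.804 within-group SDs (adjusted p = 1 by limma), and its exact two-sided permutation p was 0.314. High-fat replicate 4 was the rat that made the groups overlap, so leaving it out was bound to separate them. In that fit the difference was 2.55 within-group SDs (unadjusted p = 0.0121 and adjusted p = 1.00 by limma). Of all probe sets, 2.37% had an unadjusted p under 0.05 by limma in the same fit. These values are not read as a diet difference.

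The red cell markers were set beside these values. Of 7 blood cell lists compared with that Cyp4v3 probe set over the 8 rats, the red cell list had the largest correlation. It is thus a list picked from these same data. The median scaled level of the 5 measured red cell markers (of 7 listed; a scaled level is a value minus the probe set's mean, divided by its SD over the 8 rats) was -0.396, -0.362, -0.328 and -0.456 in normal replicates 1 to 4. It was 0.935, 0.727 and 0.755 in high-fat replicates 1 to 3 and -0.680 in high-fat replicate 4. High-fat replicates 1 to 3 were the highest rats in both measures. Within the normal group the orders differed: normal replicate 4 was highest for Cyp4v3 and lowest on the red cell list. By the mean in place of the median scaled level, high-fat replicates 1 to 3 stood at 0.956, 0.295 and 0.776, and normal replicate 4 was lowest at -0.580, next to high-fat replicate 4 at -0.576. The rats fall into a cluster of 3 and a cluster of 5 on the median of the red cell list. These are too few in either for the correlation to be read, so its value is not given. The mean level of the list ran from 11.9497 to 11.9509 in the normal group and from 11.9504 to 11.9529 in the high-fat group. The lowest of the 5, the membrane skeleton protein Epb42, lay at the 97.3rd percentile of level. Hbb, also among the 5, had an SD of only 0.00535 millionths over the 8 rats, which a scaled level does not show. High-fat replicate 4 was also the highest rat on the monocyte and natural killer lists (2.26 and 2.22, others at most 0.115 and 0.379) and the lowest on the platelet list (-1.72). The part of these cells in the Cyp4v3 values was not tested.

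The other probe set of Cyp4v3 did not share the pattern. It lay at the 10.7th percentile of level with an SD of 1.01 millionths, the 6.60th percentile of all SDs. Its deviations were -0.706, 0.794, -0.855 and 1.24 millionths in normal replicates 1 to 4 and 1.23, -1.22, 0.338 and -0.817 in high-fat replicates 1 to 4, with no separation of the diets. The SDs of the 2 probe sets differed 889-fold.

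**Figure D3:**
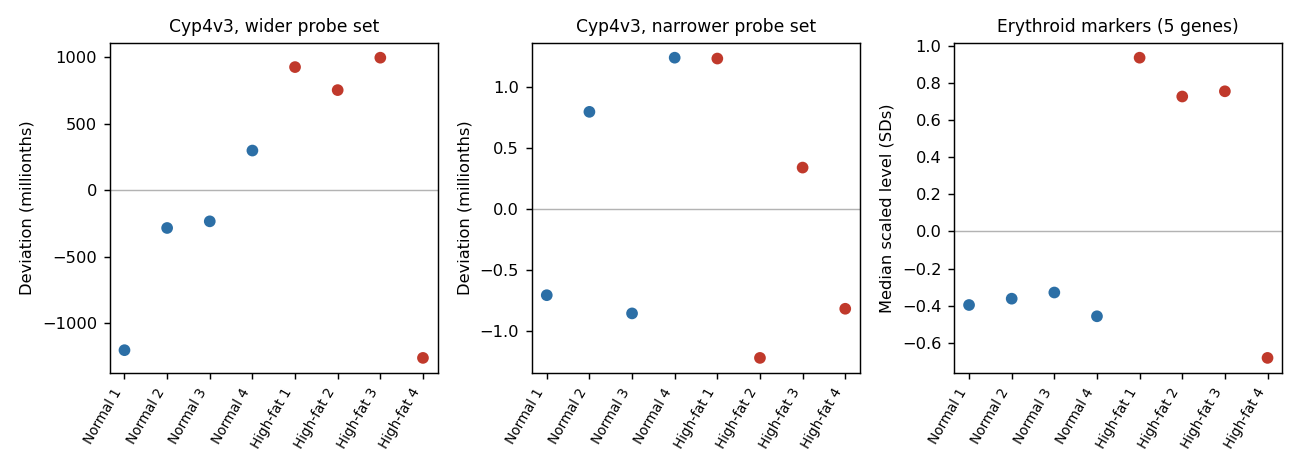
Values in each rat (x axis) of the wider and the narrower Cyp4v3 probe set (deviation from the mean over 8 rats, millionths of a deposited log2 unit) and of 5 red cell markers (median scaled level, SDs). Blue points are the normal diet and red points the high-fat diet. High-fat replicates 1 to 3 are the highest and high-fat replicate 4 the lowest rats in the left and right panels, and normal replicate 4 is the highest normal rat in the left panel and the lowest in the right one, and the y axis of the middle panel spans under 3 millionths.

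Probe sets of 1 gene often differed in spread. Between the widest and the narrowest probe set the SD ratio was 114 for Cyp2j3, an epoxygenase known from heart, 21.1 for Cyp51, 3.995 for the 3 probe sets of aromatase (Cyp19a1), 2.13 for Cyp2d4, 1.36 for Cyp4a8 and 1.24 for Cyp26b1. The sign of the diet difference agreed between probe sets for Cyp26b1, Cyp2j3 and Cyp4a8 and differed for Cyp19a1, Cyp2d4, Cyp4v3 and Cyp51. By the maker's naming, the suffix _s_at marks probes shared with similar transcripts, which is the case for the Cyp2c13 probe set and the wider one of Cyp51.

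Across animals, on the deposited values, the P450 probe sets moved with 2 rats, 1 of each diet. Of the 66 members, 17 (25.8%) had their highest value in normal replicate 3 and 17 (25.8%) in high-fat replicate 3, against 21.3% and 13.7% of all probe sets. In normal replicate 2, 22 members (33.3%) had their lowest value, against 14.4% of all. The median scaled level of the members was -0.221, -0.637, 0.691 and 0.209 in normal replicates 1 to 4 and 0.113, -0.111, 0.745 and -0.325 in high-fat replicates 1 to 4. These values were independent of the annotation that chose the members, but the pattern was noticed in the data and was not tested. The array median itself was lowest in normal replicate 3 (6.600293) and highest in high-fat replicate 4 (6.60051), a span of 217 millionths. The pattern was not recomputed with centring or quantile normalization. Centring subtracts the array median, which in high-fat replicate 3 was 6.60037, above that of every normal rat. The span of the medians far exceeded the SD of most members. In most members these medians would therefore largely set the order of the rats after centring. The pattern is thus described for the deposited values only.

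In both of these rats the members lay above their own mean in 35 of 66 cases (53.0%), against 34.8% of all probe sets. The count was 11 of 18 for members above the array median, where all probe sets of that range had 28.8%, and 24 of 48 for members below it, where all had 40.9%. Markers of other tissues had 18 of 26 and blood cell markers 5 of 33. Blood cell markers lay below their own mean in both rats in 20 of 33 cases, against 28.3% of all probe sets. That share was 40.4% above the array median and 16.2% below it. Among the 20 was Hbb, whose SD over the 8 rats was only 0.00535 millionths. Members did so in 4 of 66 cases (6.06%), namely Cyp2a2, Cyp20a1, Cyp51 (the narrower of its 2 probe sets) and Cyp2u1. Cyp20a1 deviated by 6.43, 6.26, -36.4 and -29.0 millionths in normal replicates 1 to 4 and by -2.93, 68.7, -30.5 and 17.4 in high-fat replicates 1 to 4, and so was low in replicate 3 of both diets. The narrower Cyp51 probe set deviated by -0.728 and -1.02 millionths in these rats. It was near these values in normal replicates 1 and 2 (-0.704 and -0.909) too, with normal replicate 4 at 2.37. Cyp2a2 deviated by -1.49 and only -0.131 millionths.

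The roles were compared in the same 2 rats, without a test. In normal replicate 3 and high-fat replicate 3 the median scaled level was 1.28 and 0.944 for steroid hormone enzymes, 0.744 and 0.770 for enzymes of foreign compounds, 0.674 and 0.427 for fatty acid enzymes, 0.456 and 0.939 for sterol and bile acid enzymes and 0.752 and 0.160 for vitamin D and retinoid enzymes. The orphan Cyp20a1 stood at -1.06 and -0.890. Markers of other tissues stood at 0.886 and 0.760, and liver markers alone at 0.905 and 0.920. The blood cell markers stood at -0.848 and -0.262, and their lists differed. T cell markers stood at -1.69 and -0.454, B cell markers at -1.07 and -1.35, monocyte markers at -0.622 and -0.752 and natural killer cell markers at -0.686 and -0.310. Neutrophil markers stood at -1.21 and 0.211, red cell markers at -0.328 and 0.755 and platelet markers at 0.0855 and 0.570. The members above the array median, at 0.785 and 0.736, thus stood on the side of the markers of other tissues, while all probe sets above the array median stood at -0.313 and -0.176. All probe sets below the array median stood on that same side, at 0.465 and 0.258, so this side is not particular to P450 genes or tissue markers. The part of white cell numbers or of RNA quality in this pattern was not tested.

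**Figure D4:**
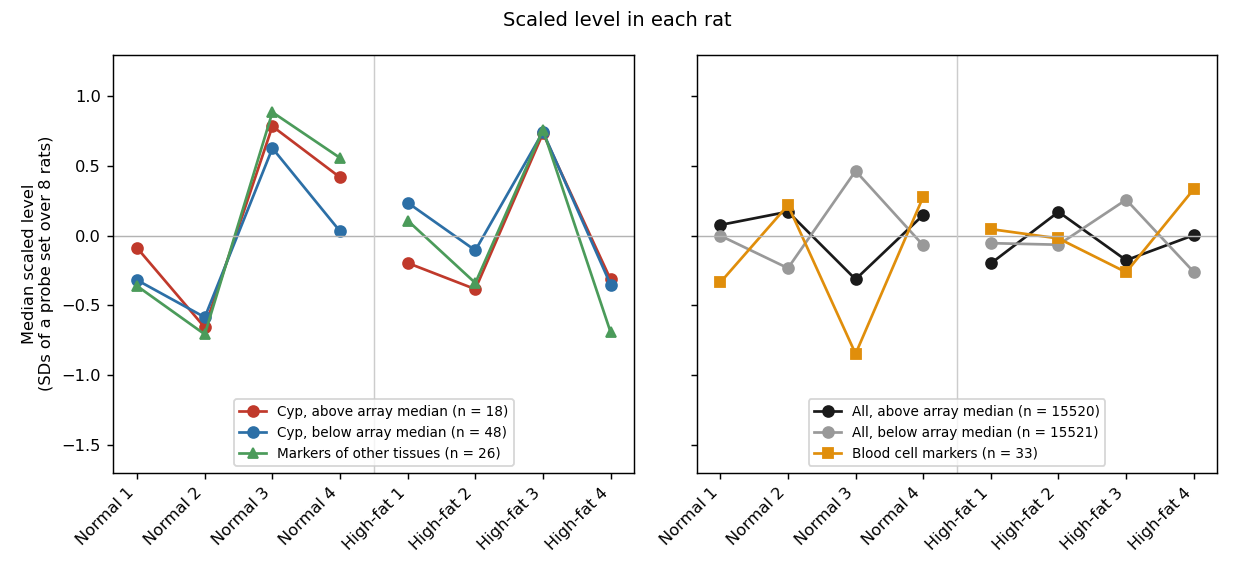
Median scaled level in each rat (x axis; y axis in SDs of a probe set over 8 rats) for P450 probe sets above and below the array median and markers of other tissues (left) and for all probe sets above and below the median and blood cell markers (right). Levels are as deposited, and lines join the rats of a diet only to guide the eye. The left-hand sets are all above 0.6 in normal replicate 3 and above 0.7 in high-fat replicate 3, and the blood cell markers are below 0 in both.

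The diets did not separate any P450 probe set. With limma and Benjamini-Hochberg adjustment over 31042 probe sets, 0 of 66 members passed an adjusted p of 0.05, as did 0% of all probe sets, and each member had an adjusted p of 1. At an unadjusted p under 0.05 there were 3 members (4.55%), against 2.25% of all probe sets (0.95% with a positive and 1.3% with a negative high-fat minus normal difference). In 0 members did the 4 high-fat values lie entirely above or below the 4 normal ones, against 1.44% of all probe sets (0.586% above and 0.857% below). The lowest exact two-sided permutation p of a member was 0.0571, where the design allows 0.0286.

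Cyp2c13, a male form of rat liver that hydroxylates steroids and drugs, had the smallest p. It deviated by -1.65, -2.80, -1.82 and 0.277 millionths in normal replicates 1 to 4 and by 0.215, 2.59, 2.60 and 0.588 in high-fat replicates 1 to 4. Normal replicate 4 lay just above the lowest high-fat rat, which was the overlap between the groups. The difference was 2.997 ± 1.15 millionths (SE by limma, n = 4 and 4), or 2.34 within-group SDs, with an unadjusted p of 0.0357 and an adjusted p of 1 by limma. The sign turned under both other scalings, to -1.22 within-group SDs with quantile normalization and -1.15 with centring.

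Cyp4f5, of the fatty acid and leukotriene hydroxylases, had the smallest p among members with a negative difference. It deviated by 1.33, -1.15, 3.18 and 6.99 millionths in normal replicates 1 to 4 and by -2.84, -0.771, -5.60 and -1.14 in high-fat replicates 1 to 4. All high-fat rats were below the mean over the 8 rats, and normal replicate 2 lay among them. The difference was -5.18 ± 2.06 millionths (SE by limma, n = 4 and 4), or -1.80 within-group SDs, with an unadjusted p of 0.0416 and an adjusted p of 1 by limma. It was -1.32 within-group SDs with centring and 0 with quantile normalization.

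Cyp11a1, the enzyme that starts steroid hormone synthesis in adrenal and gonad, deviated by -62.0, -2.76, 14.003 and -41.0 millionths in normal replicates 1 to 4 and by 10.5, 16.6, 49.9 and 14.7 in high-fat replicates 1 to 4. All high-fat rats were above the mean, normal replicate 3 lay among them, and normal replicates 1 and 4 were far below. The difference was 45.9 ± 18.5 millionths (SE by limma, n = 4 and 4), or 1.65 within-group SDs, with an unadjusted p of 0.0430 and an adjusted p of 1 by limma. The sign turned here too, to -0.707 within-group SDs with quantile normalization and -0.293 with centring. Its place at the 38.2nd percentile is below the array median.

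The 7 next smallest p-values, from 0.0511 to 0.182 by limma before adjustment, belonged to Cyp11b1 (1.65 within-group SDs), 1 of the 3 aromatase probe sets (Cyp19a1, 1.302), Cyp2u1 (1.28), Cyp4f6 (-1.32), Cyp3a23-3a1 (1.34), Cyp4a8 (1.06) and Cyp4f1 (1.02). Cyp11b1 makes corticosterone in the adrenal cortex. The other aromatase probe sets stood at -0.0546 and 0.529, and the other Cyp4a8 probe set at 0.732. Cyp1b1 stood at 0.0906, Cyp2d4 at -0.316 and 0.375, Cyp46a1 at 0.581, Cyp27a1 at 0.239 and Cyp27b1 at -0.857 within-group SDs. Cyp7a1 stood at -1.10 and Cyp7b1 at -0.417.

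On the deposited values 40 members had a positive high-fat minus normal difference and 26 a negative one, so 60.6% were positive against 46.6% of all probe sets. Centring each array on its median turned this to 1 positive (Cyp4v3) and 65 negative, and quantile normalization on top gave 11 positive, 18 negative and 37 equal. The array medians spanned 217 millionths, far more than the SD of most members, and directions of P450 groups depend on the scaling. These medians ran from 6.600293 to 6.600364 in the normal group and from 6.600369 to 6.60051 in the high-fat group, so they did not overlap between the diets. The median difference was 0.0864 within-group SDs, against -0.0479 over all probe sets, and 13 of 66 members (19.7%) differed by more than 1 within-group SD in either direction, against 13.2% of all. Members above the array median had 9 positive and 9 negative, with a median of -0.0940, and those below had 31 and 17, with a median of 0.149.

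By subfamily, the 4 Cyp3a and the 4 Cyp4a probe sets were all positive on the deposited values and all negative with centring, the 4 Cyp2j probe sets were negative with both, and the 5 Cyp4f probe sets had 1 positive and 4 negative on the deposited values and were all negative with centring. With quantile normalization the Cyp2j probe sets were all equal, the Cyp3a probe sets had 1 positive, 1 negative and 2 equal, the Cyp4a probe sets 1 positive and 3 equal, and the Cyp4f probe sets 1 positive, 2 negative and 2 equal. By role, 19 of 29 enzymes of foreign compounds were positive on the deposited values, 7 of 17 fatty acid enzymes, 5 of 8 sterol and bile acid enzymes, 3 of 4 vitamin D and retinoid enzymes and 5 of 7 steroid hormone enzymes, and with centring 0, 1, 0, 0 and 0. With quantile normalization the positive ones were 6, 3, 1, 0 and 1 in that order, the negative ones 10, 3, 3, 0 and 2, and the others were equal.

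The count of 3 members at an unadjusted p under 0.05 by limma depended on single rats. It was 0 without normal replicate 1, and 1 without normal replicate 4 (Cyp2c13), high-fat replicate 2 (Cyp4f5) or high-fat replicate 3 (Cyp4f6). The share of all probe sets in these fits was 1.87%, 2.60%, 2.45% and 2.54% in that order, against 2.25% with all rats. The median difference turned to -0.0321 within-group SDs when normal replicate 2 was left out and to -0.0584 when high-fat replicate 3 was, with 32 and 30 of 66 members positive. It was 0.413 at most in the other cases of leaving out 1 rat.

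**Figure D5:**
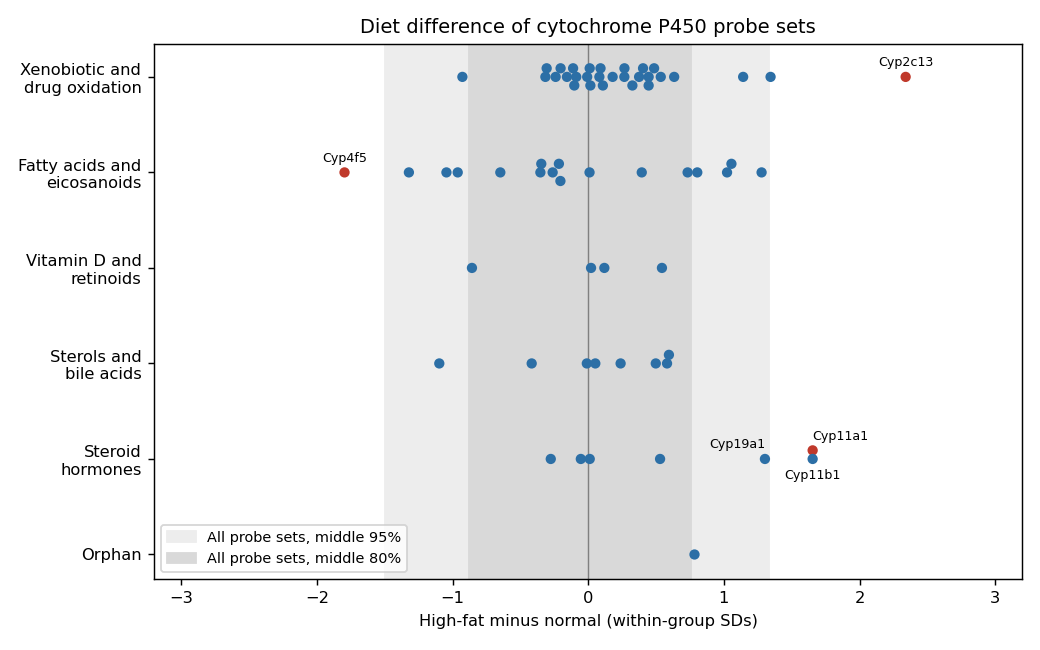
High-fat minus normal difference of each of the 66 P450 probe sets (x axis, within-group SDs) by role (rows), on the deposited values. Red points have an unadjusted limma p under 0.05 and none passes after adjustment. Grey bands hold the middle 80% and 95% of all probe sets, and with centring of the arrays 65 of the 66 points would lie below 0.

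Among genes that work with the P450 enzymes, the measured electron donors lay above the array median by their highest probe sets. In this and the other lists each gene stands by its highest probe set, while P450 members were counted by every probe set. Of the electron donors and heme-binding partners, 8 of 8 measured (9 listed) lay above the array median, led by cytochrome b5 (Cyb5a, 90.2nd percentile) and the membrane protein Pgrmc2 (88.1st). Fdx1, the ferredoxin of mitochondrial P450 enzymes, lay at the 86.9th percentile, and Por, the reductase that serves the microsomal ones, at the 51.6th. No donor or partner had an unadjusted p under 0.05 by limma, 6 differences were positive and 2 negative, and the median was 0.406 within-group SDs. In normal replicate 3 and high-fat replicate 3 this list stood at -0.824 and -0.811, the reverse of the P450 probe sets. The other lists of related genes, described next, were positive in both rats. P450 proteins without a Cyp symbol stood at 1.65 and 0.221, and receptors and partners that control P450 genes at 0.772 and 0.0709. Eicosanoid enzymes and receptors stood at 0.311 and 0.335, and conjugating enzymes at 0.246 and 0.397. The 2 P450 proteins without a Cyp symbol also lay above the median: thromboxane synthase (Tbxas1), known from platelets and macrophages, at the 73.7th percentile and prostacyclin synthase (Ptgis) at the 63.9th.

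Of 16 eicosanoid enzymes and receptors, 12 lay above the array median, with the lipoxygenase Alox15 (98.5th percentile) and the prostaglandin E synthase Ptges3 (98.3rd) highest. None had an unadjusted p under 0.05 by limma, and 10 differences were positive and 6 negative (median 0.101 within-group SDs). Of 19 measured receptors and partners that control P450 genes (20 listed), 7 lay above, with the retinoic acid receptor Rara (90.6th) and the fatty acid receptor Ppard (89.4th) highest. The aryl hydrocarbon receptor (Ahr) lay at the 46.4th percentile and the pregnane receptor (Nr1i2) at the 56.5th. None had an unadjusted p under 0.05, 13 differences were positive and 6 negative (median 0.239 within-group SDs), and the vitamin D receptor (Vdr) was nearest, at -1.52 within-group SDs (unadjusted p = 0.0596 and adjusted p = 1 by limma).

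Of 17 measured conjugating enzymes (20 listed), 12 lay above the array median, with the glutathione transferases Gstp1 (99.3rd percentile) and Mgst2 (96.8th) highest. In this list 8 differences were positive and 9 negative, with a median of -0.162 within-group SDs. An unadjusted p under 0.05 was found for 1 of the 17, the thiopurine methyltransferase Tpmt at -1.62 within-group SDs (unadjusted p = 0.0461 and adjusted p = 1 by limma). These counts of direction hold for the deposited values, and with centring 1.63% of all probe sets had a positive difference.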

How the data were processed

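Whole blood RNA of 8 rats was measured on Affymetrix 3' arrays. The values used were the log2 levels of the table the authors deposited; background correction, normalization and combination of probes are not given in the sources used here. Per the labels' protocols, RNA was extracted with a phenol reagent, column-purified and biotin-labelled. Gene names came from the platform annotation, which gave 1 symbol for 20826 of 31042 probe sets, several for 436 and none for 9780. The 57 control probe sets were left out.

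The diets were compared per probe set by limma 3.58.1 (R 4.3.3; lmFit, eBayes) as a two-sided contrast of high-fat minus normal without covariates, adjusted by Benjamini-Hochberg over all 31042, with a threshold of 0.05, and the script was tested on simulated data. Single members were also tested with an exact permutation over 70 assignments. Means differing by at most 1e-12 counted as equal. For related and marker genes the probe set with the highest mean stood for the gene. The members, the gene lists, the roles and the rule for named genes were chosen with earlier results of these data known. Named were the 15 highest members, the 10 with the smallest p, the 5 widest and the 5 lowest. The other probe sets of genes named by p and the 2 highest of each list of related genes were also named. Further names, among them those of tissue markers, were picked with their values in view. Alternatives were quantile normalization, centring, brighter probe sets, trend and robust moderation, the replicate number as a block, array weights and leaving out each rat. The number of arrays limits the precision.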

Additional observations from a re-analysis of the deposited data

Results flagged for a closer look

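In each diet group of 4 rats, the gap between the extreme rat and its neighbour was divided by the range of the group and compared with Dixon's 95% critical value. Of 132 groups (66 members in 2 diets), 7 passed it, where chance flags about 1 in 20. Among them were probe sets from the steroid hormone, sterol, fatty acid and foreign compound roles.

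In the normal group, the narrower Cyp51 probe set had a ratio of 0.937, with normal replicate 4 at 2.37 millionths and the others between -0.909 and -0.704. Cyp4f17, of the leukotriene hydroxylase group, had 0.900, with normal replicate 3 at -26.5 millionths and the others between 13.1 and 17.5.

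In the high-fat group, high-fat replicate 3 was the highest rat for Cyp11a1 (ratio 0.843, at 49.9 millionths against 10.5 to 16.6) and for Cyp27a1 (0.892, at 3.09 against -1.03 to -0.580). High-fat replicate 1 was the lowest for Cyp2c11 (0.861, at -1.92 millionths against 1.03 to 1.51) and for 1 probe set of Cyp4a8 (0.878, at -1.35 against 5.70 to 6.69). High-fat replicate 4 was the lowest for the wider Cyp4v3 probe set (0.892, at -1259 millionths against 753 to 997). The causes were not tested.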

How the results depend on the processing

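In 14 alternative fits no P450 probe set passed an adjusted p of 0.05 by limma, and the lowest adjusted p of a named member was 0.191, with centring. Quantile normalization called 32 of all probe sets and gave 0 members at an unadjusted p under 0.05, against 1.19% of all. With it the median member difference was 0 and the median SD 2.49 millionths. Centring gave 0 members at that p (1.94% of all probe sets) and 28 whose groups did not overlap (50.1% of all probe sets). With centring the median difference was -1.15 within-group SDs and the median SD 62.8 millionths. The shift of the array medians enters every centred value. Among the brighter probe sets 1 member (Cyp4f5) had an unadjusted p under 0.05, as did 1.71% of all brighter probe sets. Quantile normalization, centring and array weights changed the sign, or set to 0, the difference of 28, 22 and 5 of 37 named probe sets, and leaving out 1 rat that of 0 to 7. Leaving out each rat in turn, the probe sets called stayed at 0, for members and overall. Members at an unadjusted p under 0.05 ranged from 0 to 4, where all probe sets had 1.87% to 4.07%. Members without overlap ranged from 0 to 3, with 0 without normal replicate 1 and 1 (Cyp4f5) without normal replicate 2. All probe sets without overlap rose from 1.44% to 2.72% and 3.49% in those fits, in that order. The share of all probe sets in the fit with 3 such members is not given here, so that count is not read as a result about the members. The median difference ranged from -0.0584 to 0.413, the median SD from 4.34 to 5.34, and members above the array median stayed at 18. The replicate number as a block gave 1 member at an unadjusted p under 0.05 (Cyp11a1) and 3.58% of all probe sets. Rats of the same number correlated at -0.121, 0.197, 0.355 and 0.140 over probe sets, and rats of different numbers at -0.285 to 0.192. The labels do not say that the numbers pair rats, so the main fit used no pairing. Whether rats of 1 number shared a factor was not tested.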

Other observations

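A further 7 probe sets were annotated to several genes, at least 1 of them a Cyp gene, and were not counted as members. The highest, for Cyp2a2 and Cyp2a1, lay at the 74.2nd percentile of level and stood at -1.11 within-group SDs between the diets, while the members for Cyp2a1 and Cyp2a2 alone lay at the 61.4th and 5.01st. There were 3 probe sets shared among the adrenal enzymes Cyp11b1, Cyp11b2 and Cyp11b3. The probe set shared by Cyp11b1 and Cyp11b3 stood at 1.69 within-group SDs (unadjusted p = 0.0495 by limma), near the 1.65 of the member for Cyp11b1 alone. Those shared by Cyp11b1 with Cyp11b2, or with both, stood at -0.248 and -0.306. The remaining ones, for Cyp2b2 and Cyp2b1, Cyp2d5 and Cyp2d1, and Cyp4a3 and Cyp4a2, stood at 0.554, 0.708 and -0.119 within-group SDs.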
